A study of Mus musculus with 16 samples.

Results

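The interferon response and antigen presentation genes described here are 40 genes, chosen by name, of the 53679 gene symbols in the expression table of an RNA-seq study of mouse primary neuronal cultures (PNCs). All 40 were found. They comprise 5 transcription factors, 5 nucleic acid sensors (with the kinase PKR), 12 antiviral effectors, 4 genes of the ISG15 system and TRIM family, 6 interferon-inducible GTPases, 4 genes of MHC class I presentation and 4 other interferon-inducible genes. The cultures were prepared from the cortex of wild-type mouse embryos at embryonic day 15. They received vehicle (VEH) or 10 μM tianeptine (TIA, an atypical antidepressant) on day 8 in vitro (DIV 8), and 24 h later, on DIV 9, either 3-h oxygen-glucose deprivation (OGD, an in vitro model of ischemia) or sham handling (CONTROL). RNA was extracted 6 h after OGD, during reoxygenation. The 4 groups, with 4 cultures each, were CONTROL-VEH (cultures 1 to 4), CONTROL-TIA (5 to 8), OGD-VEH (9 to 12) and OGD-TIA (13 to 16).

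Interferons are secreted signals of viral infection and injury. Type I interferons (through *Ifnar1* and *Ifnar2*) activate JAK kinases and a complex that includes STAT2 and IRF9 and binds the interferon-stimulated response element (ISRE), whereas interferon-γ (through *Ifngr1* and *Ifngr2*) acts mainly on the gamma-activated site (GAS) and by induction of IRF1. Neurons are known for low MHC class I and restrained interferon responses, and in the brain microglia and astrocytes are major responders.

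The promoters of the genes the results turn on are shown first, because they hold the elements through which interferon acts on such genes. RefSeq windows (GRCm38.p6, 250 bases before to 50 bases after the gene start) were found for 32 of the 40 members. The ISRE core (GAAA, any 2 bases and GAAA again, read on both strands with overlapping matches counted) was present in 18 of the 32 (56.2%), against 3.99% of 27025 symbols with a window. The GAS letters TTCNNNGAA, a palindrome, were present in 8 of 32 (25.0%), against 9.55% of all symbols. The GAS search was added with results in view. By role, 5 of 5 GTPases with a window, 6 of 10 antiviral effectors, 3 of 3 sensors and 1 of 4 class I genes held the ISRE core. It was found in 11 of 20 members above the expression filter used below and in 7 of 12 members under it. A match is not evidence of binding.

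Upstream stretches are given 5′ to 3′ on the gene's strand, with the match in capitals. First come 4 GTPases that rose with OGD over both TIA arms (*Gbp2* chr3:142620494-142620613, *Gbp3* chr3:142559906-142560025, *Gbp7* chr3:142530216-142530335 and *Igtp* chr11:58199436-58199555, all on the plus strand), with the ISRE core in capitals. For *Gbp2* the last 12 bases lie past the gene start of the annotation used for the expression table.
Gbp2: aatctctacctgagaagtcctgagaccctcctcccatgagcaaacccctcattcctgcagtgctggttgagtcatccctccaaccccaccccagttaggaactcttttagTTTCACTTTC
Gbp3: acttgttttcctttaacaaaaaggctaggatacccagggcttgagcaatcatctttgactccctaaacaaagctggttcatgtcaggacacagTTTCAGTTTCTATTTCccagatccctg
Gbp7: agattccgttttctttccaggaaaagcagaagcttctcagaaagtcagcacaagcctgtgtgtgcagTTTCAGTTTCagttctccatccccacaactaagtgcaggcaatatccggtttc
Igtp: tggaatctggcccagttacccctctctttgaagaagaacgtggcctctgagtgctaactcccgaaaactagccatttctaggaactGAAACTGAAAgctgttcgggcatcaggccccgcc
Next are *Irf1* (chr11:53769894-53770013, plus strand), whose capitals mark GAS since its window held no ISRE core, and *B2m* (chr2:122147538-122147685, plus strand), whose capitals mark the ISRE core.
Irf1: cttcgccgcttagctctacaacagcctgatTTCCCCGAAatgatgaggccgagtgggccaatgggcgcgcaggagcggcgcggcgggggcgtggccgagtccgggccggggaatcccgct
B2m: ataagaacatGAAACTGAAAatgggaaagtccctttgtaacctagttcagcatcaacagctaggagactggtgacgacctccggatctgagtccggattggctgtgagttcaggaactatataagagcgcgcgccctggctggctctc
Last are 3 genes with the same ISRE core whose mean stayed under the expression filter in these cultures, *Ifit1* (chr19:34640751-34640870, plus strand), *Isg15* (chr4:156200819-156200938, minus strand) and *Rsad2* (chr12:26456453-26456582, minus strand).
Ifit1: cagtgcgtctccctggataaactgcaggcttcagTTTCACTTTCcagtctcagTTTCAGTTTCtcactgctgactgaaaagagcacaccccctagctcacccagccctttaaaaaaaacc
Isg15: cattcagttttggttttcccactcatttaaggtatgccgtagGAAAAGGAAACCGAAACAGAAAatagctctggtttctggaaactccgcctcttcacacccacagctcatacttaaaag
Rsad2: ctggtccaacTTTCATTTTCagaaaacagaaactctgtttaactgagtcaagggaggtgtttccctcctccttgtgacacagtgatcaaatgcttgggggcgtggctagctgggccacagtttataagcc

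Expression is given in FPKM (fragments per kilobase of transcript per 1 M mapped reads), summed over the isoforms of a gene. Depth, estimated from the value of 1 read, was 20.2 to 25.7 M reads per culture, at which 1 read on 1 kilobase of transcript is worth 0.039 to 0.0496 FPKM. The upper end of this estimate lies above the range of aligned reads that the study gives, so read equivalents are approximate. The 9 neuron markers summed to 1040.3 to 2687 FPKM per culture, so neuronal RNA was present throughout, as the label has it. The cultures also held RNA of other cells: 10 astrocyte markers summed to 705 to 2734 FPKM and 9 oligodendrocyte-lineage markers to 159.7 to 676 FPKM. Of 14 microglia and macrophage markers, 2 passed the filter in the OGD-VEH with CONTROL-VEH comparison, and *Cx3cr1* was at 0 in 12 of 16 cultures and never above 0.02 FPKM. Within their groups, OGD-VEH 9 lay toward CONTROL and OGD-TIA 16 toward OGD-VEH on many members, and CONTROL-VEH 4 held more astrocyte RNA than the other CONTROL cultures (1689.5 against 705 to 974 FPKM). Where a call or a value turned on 1 of these cultures, it is also given without that culture. Because these are bulk samples, fewer cells of a type and less RNA per cell cannot be told apart.

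The members differed widely in level. *Irf3*, *H2-D1*, *B2m* and *Stat2* were the only 4 whose 16-culture mean reached 10 FPKM, and 17 members reached 1 FPKM. A further 17 members did not pass the filter (a mean FPKM of 0.5 or more across the cultures compared) in any comparison: *Irf7*, *Ifih1*, *Zbp1*, *Ifit1*, *Ifit3b*, *Oasl1*, *Oasl2*, *Oas1a*, *Mx1*, *Rsad2*, *Isg15*, *Usp18*, *Trim30a*, *Ifi35*, *Xaf1*, *Parp14* and *Rtp4*. Their means over 16 cultures lay between 0.00706 FPKM (*Oas1a*) and 0.322 FPKM (*Rtp4*), and 11 of the 17 were at 0 in at least 1 culture. No value among them exceeded 1.16 FPKM or about 49.5 reads. These genes include the classical type I interferon reporters *Isg15*, *Ifit1*, *Oasl2*, *Mx1*, *Rsad2* and *Irf7*. They were not tested in the filtered fit, which is not evidence that differences were absent. In the fit without a filter, *Ifit3b* was called upward over both TIA arms (log2 fold change 1.34, padj = 0.02132 by limma) and none of the other 16 was called in any comparison. That fit called 501 of 35341 genes upward and 340 downward over both arms. It called 26 upward and 10 downward in OGD-VEH against CONTROL-VEH, and at most 4 in either direction in the other comparisons. Few calls of any gene were therefore possible there. Without a test, their group mean was higher in OGD-VEH than in CONTROL-VEH for 16 of 17, and higher in OGD-TIA than in CONTROL-TIA for 10 of 17. All 4 OGD-VEH cultures lay above all 4 CONTROL-VEH cultures for *Zbp1*, *Ifit3b*, *Rsad2* and *Parp14*. *Zbp1* did not exceed about 3.8 reads in any culture. The shares of all genes under the filter with these patterns were not counted, so the patterns are descriptions near the floor.

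**Figure D1:**
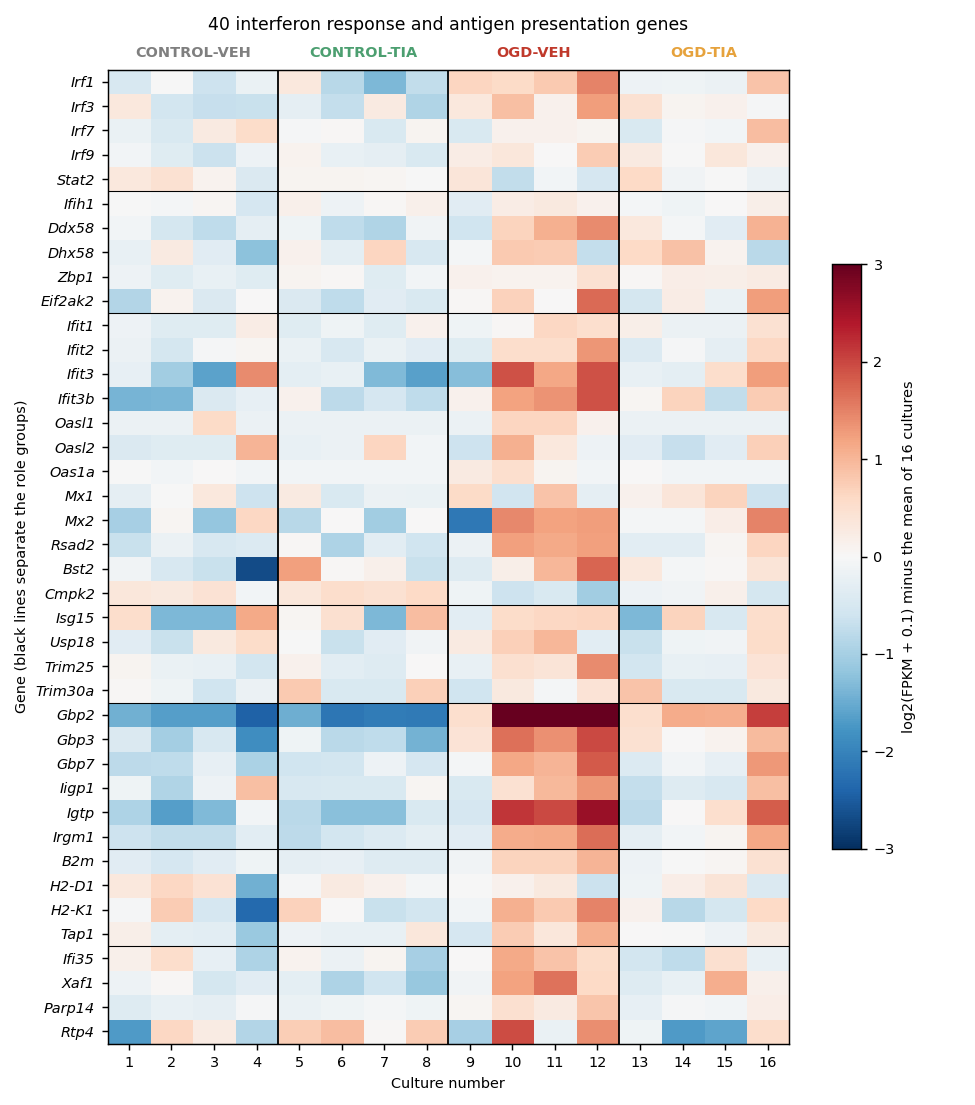
Heatmap of log2(FPKM + 0.1) minus the gene's mean over 16 cultures for the 40 members (rows, ordered by role) in cultures 1 to 16 (columns, by group), with red above and blue below the mean. The GTPase rows are darkest red in OGD-VEH cultures 10 to 12 and in OGD-TIA 16, and OGD-VEH 9 is paler than the other 3 cultures of its group.

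To ask which members changed with OGD without TIA, OGD-VEH was compared with CONTROL-VEH. Guanylate-binding protein genes and *Irf1* rose. Of the 23 members tested, 4 were differentially expressed upward (adjusted p-value, padj, of at most 0.05 and log2 fold change of at least 1): *Gbp2*, *Gbp3*, *Gbp7* and *Irf1*. None was differentially expressed downward. Among all 16346 genes tested, 2.4% were called upward and 1.68% downward. At a padj of at most 0.05 with any fold change, 5 members were up (the fifth was *B2m*), against 4.99% of all genes, and none was down (3.45%). At an unadjusted p under 0.05, 11 members were up and 1 was down, against 20.2% and 14.9% of all genes. The OGD-VEH and CONTROL-VEH cultures did not overlap for 7 of the 23: *Gbp2*, *Gbp3*, *Gbp7*, *Irf1*, *Irf9* and *B2m* were higher (12.7% of all genes were) and *Cmpk2* was lower (9.95%). The log2 fold change was above 0 for 20 of 23 members and for 58.2% of all genes. The members tested had a median log2 fold change of 0.91 (0.75 over all 40 without a filter), beside 0.10 over all genes tested. Of the 23, 8 passed the filter only through the OGD-VEH cultures, *Gbp2*, *Gbp3*, *Gbp7* and *Igtp* among them, so the counts over the members tested are descriptions. The calls depended on single cultures. Without any 1 of CONTROL-VEH 1, 2, 3 or 4 or OGD-VEH 10, 11 or 12, 0 members were called, and without OGD-VEH 9, 11 were called (*B2m*, *Ddx58*, *Gbp2*, *Gbp3*, *Gbp7*, *Igtp*, *Irf1*, *Irf3*, *Irgm1*, *Mx2* and *Tap1*). Over all genes, leaving out OGD-VEH 9 gave 1185 called upward and 1001 downward, whereas leaving out any other culture gave at most 43 upward and 28 downward. Without a filter on low values 0 of 40 were called, beside 26 genes upward and 10 downward of 32532 in all.

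The GTPases, which attack the vacuoles of intracellular pathogens, held the largest changes. *Gbp2*, a guanylate-binding protein on chromosome 3 (chr3:142620602-142638008), measured 0.297, 0.243, 0.246 and 0.103 FPKM in CONTROL-VEH cultures 1 to 4. It measured 1.44, 11.6, 9.35 and 9.53 FPKM in OGD-VEH cultures 9 to 12. Every OGD-VEH culture lay above every CONTROL-VEH culture, and culture 9 was the lowest of its group by far. The log2 fold change was 4.35 ± 0.63 (SE, padj = 0.02814 by limma, exact permutation p = 0.0286, the smallest that 4 against 4 cultures can give).

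With TIA, *Gbp2* measured 0.294, 0.142, 0.152 and 0.147 FPKM in CONTROL-TIA cultures 5 to 8 and 1.44, 2.26, 2.21 and 4.45 FPKM in OGD-TIA cultures 13 to 16. These groups did not overlap either. The log2 fold change was 3.16 ± 0.36 (SE), with a padj of 0.07407 by limma. A single isoform of 2516 bases held 99.99 to 100% of the *Gbp2* value in every culture, so its level did not rest on a division between isoforms. In read equivalents, CONTROL cultures held 5.7 to 18.0 reads of *Gbp2* and OGD cultures 71.5 to 647 reads.

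*Gbp3* (chr3:142560026-142573209), a neighbour of *Gbp2* in the same gene cluster, measured 0.676, 0.416, 0.652 and 0.188 FPKM in CONTROL-VEH and 1.31, 3.18, 2.61 and 4.04 FPKM in OGD-VEH. The groups did not overlap (log2 fold change 2.30 ± 0.44 SE, padj = 0.03395 by limma). With TIA but without OGD it measured 0.857, 0.498, 0.519 and 0.296 FPKM, and in OGD-TIA 1.33, 0.964, 1.03 and 1.94 FPKM. These were also separate, with a log2 fold change of 1.16 ± 0.33 (SE, padj = 0.1503 by limma).
*Gbp7* (chr3:142530342-142550149), another member of the cluster, measured 0.297, 0.304, 0.477 and 0.252 FPKM in CONTROL-VEH and 0.557, 1.43, 1.28 and 2.35 FPKM in OGD-VEH. It rose by 1.68 ± 0.43 on the log2 scale (SE, padj = 0.04847 by limma). In CONTROL-TIA it measured 0.349, 0.361, 0.508 and 0.379 FPKM and in OGD-TIA 0.414, 0.541, 0.476 and 1.57 FPKM. With TIA the groups overlapped, and culture 16 stood above the other 3 (log2 fold change 0.60 ± 0.40 SE, padj = 0.4313 by limma). Gbp genes are similar in sequence, so reads shared between them could be divided by the isoform estimation.

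The immunity-related GTPases *Igtp* (chr11:58199556-58207591) and *Irgm1* (chr11:48861968-48871683) had large fold changes in OGD-VEH that missed the threshold. *Igtp*, known as Irgm3, measured 0.199, 0.083, 0.127 and 0.437 FPKM in CONTROL-VEH and 0.304, 2.44, 2.17 and 3.35 FPKM in OGD-VEH. Culture 9 fell within the range of CONTROL-VEH and the other 3 lay above it (log2 fold change 2.56 ± 0.69 SE, padj = 0.0528 by limma). *Irgm1*, a regulator of autophagy, measured 0.708, 0.646, 0.648 and 0.893 FPKM in CONTROL-VEH and 0.873, 2.57, 2.63 and 3.88 FPKM in OGD-VEH (a log2 fold change of 1.49 ± 0.41 SE, padj = 0.0549 by limma). Again only culture 9 overlapped with CONTROL-VEH. In OGD-TIA, *Igtp* measured 0.230, 0.480, 0.705 and 1.91 FPKM, and *Irgm1* 0.934, 1.08, 1.20 and 2.67 FPKM. CONTROL-TIA held 0.139 to 0.317 FPKM of *Igtp* and 0.618 to 0.907 FPKM of *Irgm1*. Of these, only *Irgm1* was separate between the TIA groups, and the log2 fold changes were 1.33 ± 0.55 (SE, padj = 0.2414) for *Igtp* and 0.74 ± 0.33 (SE, padj = 0.2583) for *Irgm1* by limma. *Iigp1*, the sixth GTPase, overlapped between groups in both arms (log2 fold changes 0.64 and 0.17, padj = 0.3646 and 0.8218 by limma).

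Summed over the 6 GTPases, the level was 3.13, 2.21, 3.09 and 3.92 FPKM in CONTROL-VEH and 3.07, 2.61, 2.88 and 3.13 FPKM in CONTROL-TIA. It was 5.22, 22.7, 20.2 and 25.9 FPKM in OGD-VEH and 4.96, 6.09, 6.36 and 14.6 FPKM in OGD-TIA. All OGD sums lay above all CONTROL sums, and the OGD groups overlapped through culture 9 alone. *Gbp2* supplied 2.63 to 11.01% of the sum in CONTROL cultures and 27.6 to 51.2% in OGD cultures.

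**Figure D2:**
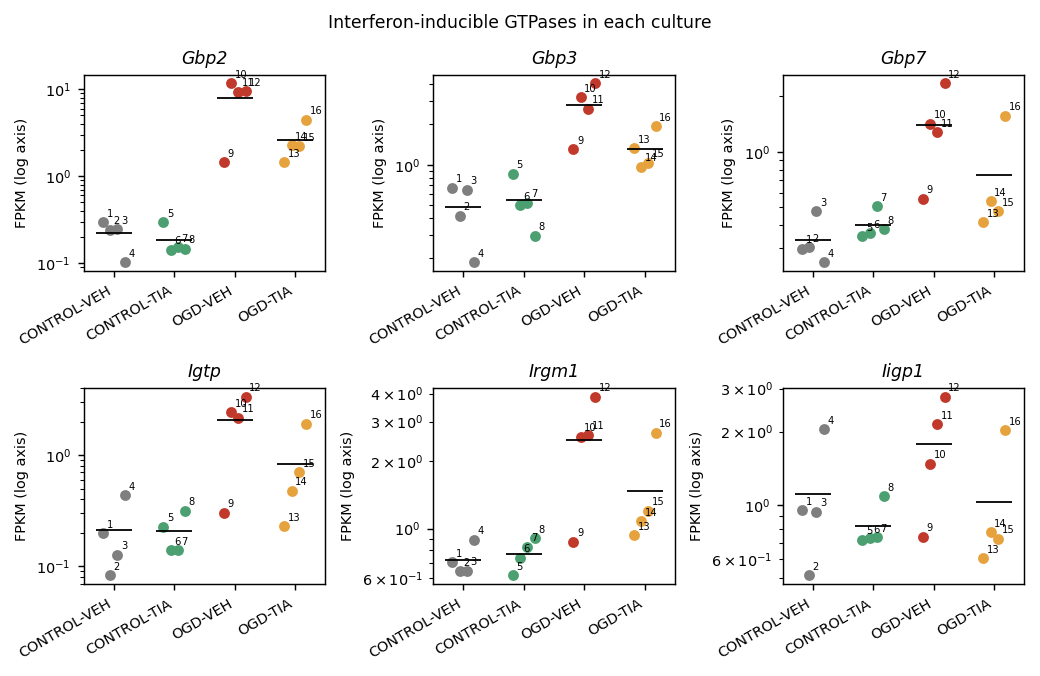
FPKM (log axis) of the 6 interferon-inducible GTPases in each of the 16 cultures, by group, with the culture number beside each point and a bar at the group mean. For *Gbp2* and *Gbp3* the 8 OGD cultures lie above the 8 CONTROL cultures, with culture 9 lowest in OGD-VEH.

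Among the transcription factors, *Irf1*, which drives antigen presentation and Gbp genes downstream of interferon-γ, rose in OGD-VEH. It measured 1.85, 2.60, 1.66 and 2.24 FPKM in CONTROL-VEH and 4.15, 3.96, 4.60 and 7.44 FPKM in OGD-VEH. The groups were separate, culture 9 included (log2 fold change 1.20 ± 0.24 SE, padj = 0.03563 by limma). With TIA, *Irf1* measured 3.28, 1.43, 0.962 and 1.52 FPKM in CONTROL-TIA and 2.33, 2.38, 2.29 and 4.82 FPKM in OGD-TIA. CONTROL-TIA 5 lay above 3 of the 4 OGD-TIA cultures, and the log2 fold change of 0.75 ± 0.38 (SE) had a padj of 0.3163 by limma.
*Irf3*, the factor that acts upstream of interferon, was the most abundant member. It measured 72.1, 39.1, 35.4 and 36.5 FPKM in CONTROL-VEH and 71.7, 108.3, 63.4 and 138 FPKM in OGD-VEH. CONTROL-VEH 1 overlapped with OGD-VEH (log2 fold change 1.05 ± 0.31 SE, padj = 0.06029 by limma). With TIA but without OGD it measured 47.8, 35.0, 69.1 and 30.6 FPKM, and in OGD-TIA 79.0, 61.0, 63.1 and 56.3 FPKM. Its most abundant isoform, of 369 bases, went from 0 to 69.2 FPKM between cultures, so the sum depends on how reads were divided among 13 isoforms.
*Stat2* and *Irf9*, which act in the same complex, gave unlike values. *Stat2* measured 24.3, 26.9, 20.97 and 14.5 FPKM in CONTROL-VEH and 25.2, 11.6, 18.5 and 13.9 FPKM in OGD-VEH, which overlapped (log2 fold change -0.35 ± 0.28 SE, padj = 0.3962 by limma). In CONTROL-TIA it measured 20.9, 20.9, 20.6 and 19.5 FPKM and in OGD-TIA 29.8, 18.2, 19.4 and 17.4 FPKM, which also overlapped. *Irf9* ranged from 5.61 to 8.33 FPKM in CONTROL-VEH and from 8.81 to 14.8 FPKM in OGD-VEH, without overlap, and had a log2 fold change of 0.64 ± 0.20 (SE, padj = 0.06567 by limma). *Irf7*, the amplifier of the type I response, stayed at 0 to 0.16 FPKM in all 16 cultures.

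No nucleic acid sensor passed the threshold in OGD-VEH. *Eif2ak2*, which encodes PKR, a kinase that halts translation on double-stranded RNA, measured 1.50, 3.05, 2.08 and 2.86 FPKM in CONTROL-VEH and 2.91, 4.67, 2.88 and 9.47 FPKM in OGD-VEH. The groups overlapped and culture 12 was highest (log2 fold change 0.91 ± 0.40 SE, padj = 0.1443 by limma). With TIA it measured 2.06, 1.64, 2.21 and 2.05 FPKM in CONTROL-TIA and 1.95, 3.33, 2.47 and 6.86 FPKM in OGD-TIA. *Dhx58*, which encodes the sensor LGP2, measured 0.930, 1.35, 0.854 and 0.414 FPKM in CONTROL-VEH and 1.05, 1.99, 1.95 and 0.634 FPKM in OGD-VEH, with overlap. With TIA but without OGD it measured 1.21, 0.884, 1.80 and 0.760 FPKM and in OGD-TIA 1.72, 2.10, 1.20 and 0.587 FPKM. *Ddx58*, which encodes RIG-I, ranged from 0.475 to 0.828 FPKM in CONTROL-VEH and from 0.545 to 2.51 FPKM in OGD-VEH (a log2 fold change of 1.05 ± 0.44 SE, padj = 0.1286 by limma). *Ifih1* (MDA5) and *Zbp1*, a sensor of Z-form nucleic acid, were under the filter, with at most 0.23 FPKM in any culture.

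Of the 12 antiviral effectors, 5 were tested in OGD-VEH and none was called upward (2.4% of all genes were). The log2 fold change was above 0 for 4 of the 5, and for 58.2% of all genes. Of the 5, *Ifit3*, *Mx2* and *Bst2* passed the filter only through the OGD-VEH cultures, so this count is a description. The mitochondrial kinase gene *Cmpk2*, which lies beside *Rsad2* on chromosome 12 and is commonly induced with it, had lower values after OGD. It measured 9.65, 9.31, 10.3 and 7.20 FPKM in CONTROL-VEH and 6.89, 4.86, 5.48 and 3.64 FPKM in OGD-VEH. The groups did not overlap, and the log2 fold change of -0.82 ± 0.21 (SE) had a padj of 0.05029 by limma. In CONTROL-TIA it measured 9.57, 10.97, 10.3 and 11.4 FPKM, and in OGD-TIA 6.76, 6.997, 8.36 and 5.22 FPKM. These were again separate (log2 fold change -0.64 ± 0.15 SE, padj = 0.1183 by limma). Its neighbour *Rsad2*, the antiviral enzyme viperin, stayed under the filter at 0.032 to 0.084 FPKM in CONTROL-VEH and 0.085 to 0.392 FPKM in OGD-VEH.
*Ifit2*, which encodes an RNA-binding inhibitor of translation, measured 2.43, 1.89, 2.68 and 2.87 FPKM in CONTROL-VEH and 2.11, 3.99, 4.01 and 7.11 FPKM in OGD-VEH. Culture 9 was within the CONTROL-VEH range (log2 fold change 0.67 ± 0.34 SE, padj = 0.1863 by limma). With TIA it measured 2.38, 1.96, 2.39 and 2.15 FPKM in CONTROL-TIA and 2.03, 2.71, 2.25 and 4.29 FPKM in OGD-TIA. The tethering factor *Bst2* had a log2 fold change of 1.62 ± 0.68 (SE, padj = 0.1301 by limma) in OGD-VEH, from a group with a culture at 0 FPKM. *Ifit3* and *Mx2* had log2 fold changes of 1.30 and 0.81 (padj = 0.3266 and 0.5259 by limma), with *Mx2* at 0.002 FPKM in culture 9 and 0.93 to 1.12 FPKM in the other 3 OGD-VEH cultures. *Ifit3* and *Ifit3b* are near-identical copies, as are *Oasl1* and *Oasl2* in part, so their separate values are uncertain.

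In the ISG15 system, only *Trim25*, a ubiquitin ligase that acts on RIG-I, was tested. It measured 0.512, 0.400, 0.395 and 0.294 FPKM in CONTROL-VEH and 0.394, 0.699, 0.648 and 1.44 FPKM in OGD-VEH, with overlap (log2 fold change 0.73 ± 0.40 SE, padj = 0.2215 by limma). CONTROL-TIA held 0.525, 0.359, 0.339 and 0.479 FPKM and OGD-TIA 0.290, 0.396, 0.384 and 0.670 FPKM. The ubiquitin-like modifier gene *Isg15* measured 0.264, 0, 0 and 0.461 FPKM in CONTROL-VEH and 0.103, 0.273, 0.290 and 0.294 FPKM in OGD-VEH. With TIA but without OGD it measured 0.164, 0.255, 0 and 0.381 FPKM and in OGD-TIA 0, 0.303, 0.083 and 0.267 FPKM. *Usp18*, which removes ISG15, and *Trim30a* did not exceed 0.219 and 0.175 FPKM. Among the 4 other interferon-inducible genes none passed the filter. *Rtp4*, a receptor chaperone, measured 0, 0.397, 0.285 and 0.076 FPKM in CONTROL-VEH, 0.439, 0.523, 0.236 and 0.455 FPKM in CONTROL-TIA, 0.063, 1.16, 0.185 and 0.756 FPKM in OGD-VEH and 0.198, 0, 0.009 and 0.368 FPKM in OGD-TIA. *Ifi35* measured 0.219, 0.308, 0.139 and 0.050 FPKM in CONTROL-VEH, 0.209, 0.152, 0.202 and 0.043 FPKM in CONTROL-TIA, 0.186, 0.527, 0.420 and 0.315 FPKM in OGD-VEH and 0.094, 0.067, 0.299 and 0.144 FPKM in OGD-TIA. The groups of both genes overlapped. *Xaf1*, a regulator of apoptosis, and *Parp14*, an ADP-ribosyltransferase, did not exceed 0.671 and 0.13 FPKM.

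The genes of MHC class I presentation did not move as a unit. *B2m*, the invariant light chain of class I molecules, measured 29.4, 26.2, 29.3 and 33.9 FPKM in CONTROL-VEH and 34.5, 59.4, 59.3 and 75.3 FPKM in OGD-VEH. The groups were separate, by a narrow margin at culture 9. Its log2 fold change was 0.89 ± 0.23 (SE, padj = 0.04814 by limma), under the fold threshold. With TIA it measured 31.0, 31.3, 28.4 and 28.2 FPKM in CONTROL-TIA and 33.2, 36.6, 38.8 and 51.1 FPKM in OGD-TIA, also separate, with a log2 fold change of 0.41 ± 0.14 (SE, padj = 0.1838 by limma). *B2m* has a single isoform in the table.
The class I heavy chain *H2-D1* measured 69.3, 86.0, 74.7 and 20.3 FPKM in CONTROL-VEH and 55.0, 60.6, 67.9 and 35.5 FPKM in OGD-VEH, with overlap and the lowest value in CONTROL-VEH 4. The log2 fold change was -0.04 (95% confidence interval -1.06 to 0.97, padj = 0.9519 by limma). This value turned on CONTROL-VEH 4. Without it the groups did not overlap and the log2 fold change was -0.52 (padj = 0.1525 by limma), whereas leaving out any other culture gave -0.16 to 0.17. In CONTROL-TIA it measured 54.0, 66.9, 60.2 and 52.9 FPKM, and in OGD-TIA 50.3, 64.0, 72.1 and 41.0 FPKM. An isoform of 391 bases supplied 52.6 to 81.4% of its value. The heavy chain *H2-K1* ranged from 0.918 to 8.67 FPKM in CONTROL-VEH and from 4.81 to 14.4 FPKM in OGD-VEH (a log2 fold change of 1.35 ± 0.63 SE, padj = 0.1613 by limma), which became 0.74 without CONTROL-VEH 4 and 1.78 without CONTROL-VEH 2. *Tap1*, a subunit of the peptide transporter, lay between 1.63 and 4.14 FPKM in CONTROL-VEH and between 2.57 and 7.73 FPKM in OGD-VEH (a log2 fold change of 0.80 ± 0.38 SE, padj = 0.1683 by limma). Reads shared by *H2-D1* and *H2-K1*, which are similar in sequence, could be divided between them.

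**Figure D3:**
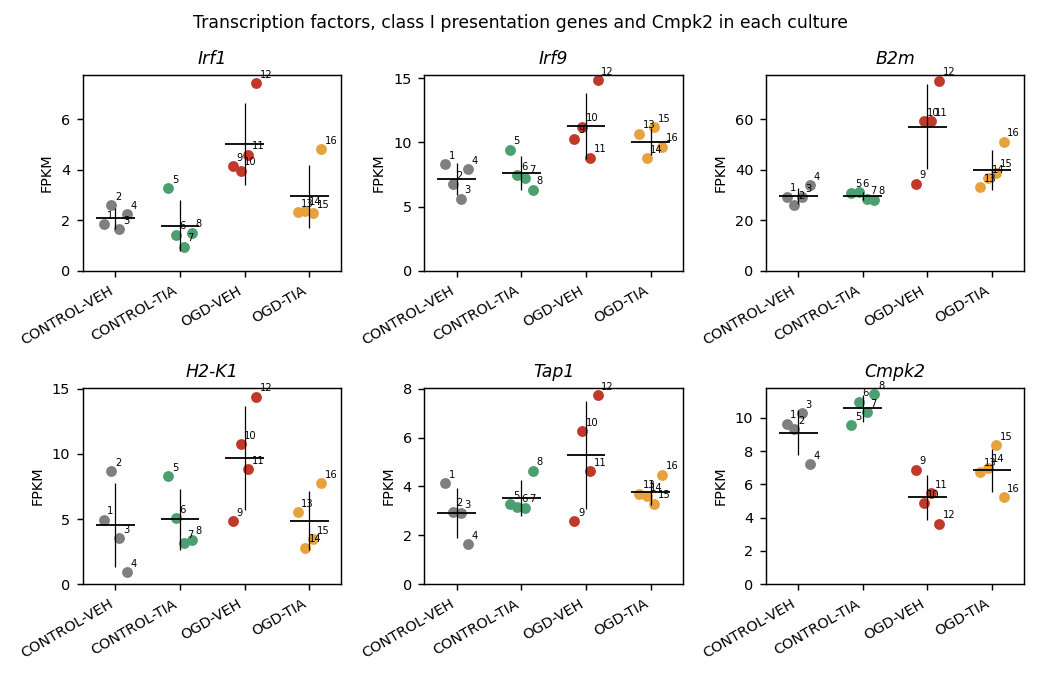
FPKM (linear axis) of *Irf1*, *Irf9*, *B2m*, *H2-K1*, *Tap1* and *Cmpk2* in each of the 16 cultures, by group, with culture numbers, a horizontal bar at the group mean and a vertical line of ± 1 SD (n = 4). *Cmpk2* lies lower in OGD-VEH (3.64 to 6.89 FPKM) than in CONTROL-VEH (7.20 to 10.3 FPKM), whereas *B2m* lies higher.

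To ask the same of cultures given TIA, OGD-TIA was compared with CONTROL-TIA. Of 20 members tested, 0 were called by limma in either direction, as were 0.0% of 16242 genes, so no gene passed in this fit. The study, which used DESeq2 at the same thresholds, did report genes up and down in this comparison. The 0 is therefore not evidence that OGD changed no gene in this arm. At an unadjusted p under 0.05, 6 members were up (*Gbp2*, *Gbp3*, *B2m*, *Irf9*, *Igtp* and *Irf3*) and 1 was down (*Cmpk2*), against 11.6% and 7.92% of all genes. The groups were separate and higher in OGD-TIA for *Gbp2*, *Gbp3*, *Irgm1* and *B2m*, against 9.51% of all genes, and lower for *Cmpk2*, against 6.72%. The median log2 fold change was 0.41 over the members tested and 0.24 over all 40, beside 0.04 over all genes. Of the 20, 3 passed the filter only through the OGD-TIA cultures (*Gbp2*, *Gbp7* and *Igtp*), so the counts and the median over the members tested are descriptions. Without OGD-TIA 16, the culture nearest to OGD-VEH, 1 member was called (*Gbp2*), beside 10 genes upward and 6 downward of 16187 in all.

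Over both TIA arms together, with TIA as a covariate and 16 cultures, 5 of the 6 GTPases rose. Of 21 members tested, 5 were called upward (2.8% of 16313 genes) and 0 downward (1.99%). The log2 fold changes were 3.76 ± 0.40 for *Gbp2* (padj = 0.0003337), 1.94 ± 0.47 for *Igtp* (padj = 0.008418), 1.73 ± 0.31 for *Gbp3* (padj = 0.002242), 1.14 ± 0.31 for *Gbp7* (padj = 0.01498) and 1.12 ± 0.28 for *Irgm1* (padj = 0.009347), all with SE and by limma. For *Gbp2* and *Gbp3* all 8 OGD cultures exceeded all 8 CONTROL cultures, a pattern that 3.22% of all genes had. At a padj of at most 0.05 with any fold change, 11 members were up (18.7% of all genes), which added *Irf1*, *Irf3*, *Irf9*, *B2m*, *Ddx58* and *Eif2ak2*. Their log2 fold changes were 0.53 (*Irf9*) to 0.98 (*Irf1*). The only member down was *Cmpk2* (log2 fold change -0.73 ± 0.13 SE, padj = 0.002221 by limma), as were 13.4% of all genes. The members' median was 0.66 (0.43 over all 40), beside 0.08 over all genes. Of the 21, 4 passed the filter only through OGD cultures (*Trim25*, *Gbp2*, *Gbp7* and *Igtp*). Leaving out OGD-VEH 12 left 3 members called (*Gbp2*, *Gbp3* and *Igtp*), beside 317 genes upward and 209 downward in all. Leaving out any other culture left 5 or 6. *Gbp2*, *Gbp3* and *Igtp* were called without each culture in turn.

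**Figure D4:**
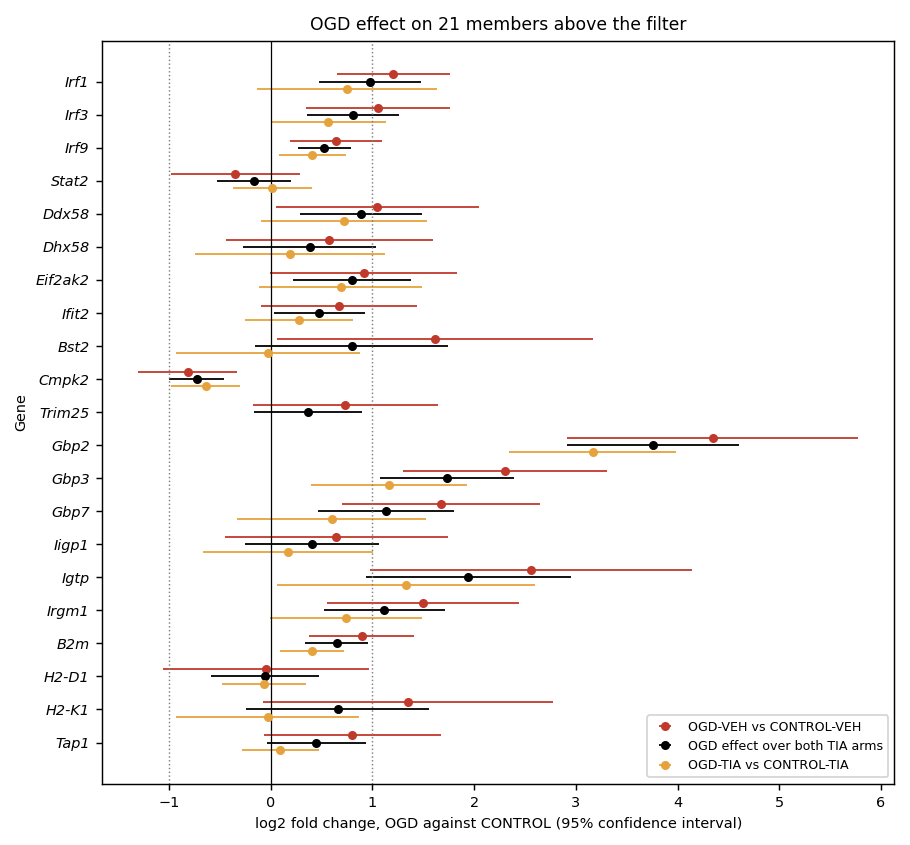
Log2 fold change of OGD against CONTROL with its 95% confidence interval for the 21 members that passed the filter in the fit over both TIA arms, for VEH (red), TIA (orange) and both arms (black), with dotted lines at -1 and 1. *Gbp2* lies farthest to the right in all 3 fits, *Cmpk2* lies below 0 in all 3, and the intervals of the arms overlap for every gene shown in both.

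Whether TIA itself moved these genes was asked in 3 ways. CONTROL-TIA was compared with CONTROL-VEH, and 0 of 17 members tested were called by limma (0.0% of 16170 genes), with a padj of 0.9994 for each and 0 at an unadjusted p under 0.05 (1.81% of all genes were up and 2.03% down at that level). OGD-TIA was then compared with OGD-VEH, and 0 of 23 were called (0.0% of 16351 genes), with padj of at least 0.5505. At an unadjusted p under 0.05, 3 members were lower in OGD-TIA, against 5.04% of all genes. They were *Gbp3* (log2 fold change -0.97 ± 0.37), *Irf1* (-0.78 ± 0.30) and *H2-K1* (-0.98 ± 0.41), each with SE. For *Gbp2* the log2 difference was -1.36 with a 95% confidence interval of -2.86 to 0.15, which covers both a large decrease and no difference. The log2 difference was above 0 for 3 of 23 members and for 43.3% of all genes. Every member's groups overlapped (2.51% of all genes were lower in every OGD-TIA culture and 1.3% higher). Among the GTPases the overlap came through OGD-VEH 9 for *Gbp2*, *Gbp3* and *Igtp*, through OGD-TIA 16 for *Gbp7*, and through both for *Irgm1* and *Iigp1*. The median was -0.50 over the members tested, beside -0.05 over all genes, and -0.84 without OGD-VEH 9.
An interaction term over 16 cultures tested whether the OGD change differed between the arms. None of 21 members was called by limma (0.0% of 16313 genes), the lowest padj was 0.7219, and 0 had an unadjusted p under 0.05 (2.66% of all genes were up and 3.4% down at that level). The interaction was -1.14 for *Gbp3* (95% confidence interval -2.35 to 0.06) and -1.18 for *Gbp2* (-2.81 to 0.44). The calls present in the VEH arm and absent in the TIA arm are therefore not shown to differ between the arms. The VEH and TIA comparisons with OGD-VEH share cultures and are not independent of each other.

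Other genes of the interferon and antigen presentation pathways, were read in 7 lists with 132 members. In OGD-VEH, 68 were tested, 5 were called upward (2.4% of all genes were) and 0 downward (1.68%), with a median log2 fold change of 0.36. Interferon ligands were nearly silent. None of 12 ligand genes (with the related cytokines *Il15* and *Il27*) passed the filter, their summed level was 0 to 0.913 FPKM per culture, and 8 to 12 of them were at 0 in each culture. *Ifnb1* was at 0 in 14 of 16 cultures and *Ifng* in 11. Of 11 receptors, kinases and STATs, 10 were tested and *Stat3*, which answers mainly to cytokines of the IL-6 family, rose (log2 fold change 1.08 ± 0.23 SE, padj = 0.03726 by limma). *Ifngr1*, *Ifnar2* and *Il10rb* had log2 fold changes of 0.91, 0.70 and 0.67 with padj of 0.09094, 0.0908 and 0.1861 by limma.
Of 14 sensors and adaptors, 11 were tested, and the DNA sensor *Ifi204* (log2 fold change 3.03 ± 0.60 SE, padj = 0.03469) and the RIG-I adaptor *Mavs* (1.21 ± 0.27, padj = 0.04147) rose by limma. *Ifi204* was at 0 in 3 of 4 CONTROL-VEH cultures and passed the filter only through OGD-VEH. Of 52 other interferon-stimulated genes, 22 were tested, and the chemokine gene *Cxcl10* rose by 4.47 ± 0.78 (SE, padj = 0.0336 by limma). *Cxcl10* measured 0.328, 0.212, 0.153 and 0.081 FPKM in CONTROL-VEH and 0.948, 11.9, 8.61 and 13.5 FPKM in OGD-VEH, with culture 9 again lowest. Like *Ifi204*, *Cxcl10* passed the filter only through OGD-VEH. It measured 0.508, 0.289, 0.210 and 0.277 FPKM in CONTROL-TIA and 0.884, 4.40, 2.75 and 6.79 FPKM in OGD-TIA. Of 28 other antigen presentation genes, 16 were tested and *Cd1d1*, which presents lipids to NKT cells, rose from 10.6, 7.13, 10.8 and 12.1 FPKM to 13.002, 36.9, 40.03 and 48.4 FPKM (log2 fold change 1.63 ± 0.39 SE, padj = 0.04471 by limma). *Tap2*, *Psme2* and *H2-Q4* had log2 fold changes of 1.41, 0.35 and 1.57 with padj of 0.06978, 0.08249 and 0.1001. None of 5 negative regulators tested was called. *Socs3*, *Ptpn2* and *Socs1* had log2 fold changes of 1.15, 0.36 and 0.81 with padj of 0.08191, 0.09572 and 0.1348 by limma.
None of 62 tested in the TIA arm was called. Over both arms, 6 of 66 were called upward (2.8% of all genes were) and 0 downward (1.99%). They were *Cxcl10* (log2 fold change 3.69), *Irf2* (1.65), *Cd1d1* (1.34), *Ifitm3* (1.07), *Rnf213* (1.06) and *Stat3* (1.01). Here too *Cxcl10* passed the filter only through OGD cultures, so the count of 6 is a description.

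Markers of other cells were read beside the GTPases. The 14 microglia and macrophage markers summed to 9.75 to 13.6 and 10.6 to 12.2 FPKM in CONTROL cultures with VEH and TIA, and to 8.29 to 11.4 and 8.40 to 12.2 FPKM in OGD cultures with VEH and TIA. Among the 14, *Cx3cr1*, *Csf1r*, *Itgam*, *Tmem119* and *C1qb*, named with their low values in view, did not exceed 0.02, 0.113, 0.249, 0.095 and 0.162 FPKM. In OGD-VEH against CONTROL-VEH, the 2 markers tested had a median log2 fold change of -0.39, with 1 down at an unadjusted p under 0.05 (14.9% of all genes were). Without a filter, 9 of the 14 lay above 0, with a median of 0.08, beside 0.04 over all genes in that fit. Of 6 T and B cell markers none was tested, and their sum did not exceed 0.307 FPKM. The 10 astrocyte markers summed to 813 to 1689.5 FPKM in CONTROL-VEH and 705 to 934 FPKM in CONTROL-TIA. They summed to 1089 to 2734 FPKM in OGD-VEH and 825 to 2076 FPKM in OGD-TIA. At an unadjusted p under 0.05 in OGD-VEH, 4 of 10 were up and 0 down, against 20.2% and 14.9% of all genes. The 9 oligodendrocyte-lineage markers summed to 177 to 213 and 159.7 to 195 FPKM in the CONTROL groups and 244 to 676 and 225 to 438 FPKM in the OGD groups, with 4 of 7 tested called upward in OGD-VEH (2.4% of all genes were), while *Mbp* was lower (log2 fold change -0.88 ± 0.23 SE, padj = 0.04928 by limma). The 9 neuron markers summed to 2028 to 2687 and 2086 to 2279 FPKM in the CONTROL groups and to 1040.3 to 1886 and 1312 to 2112 FPKM in the OGD groups. The OGD cultures with the highest GTPase sums (10, 11, 12 and 16) were thus also those with the highest glial and lowest neuronal marker sums within their groups. CONTROL-VEH 4 exceeded OGD-VEH 10 and 11 in astrocyte markers (1689.5 against 1497 and 1363 FPKM) with a GTPase sum of 3.92 FPKM and *Gbp2* at 0.103 FPKM. The part of astrocyte and oligodendrocyte-lineage RNA in the GTPase values was not tested.

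**Figure D5:**
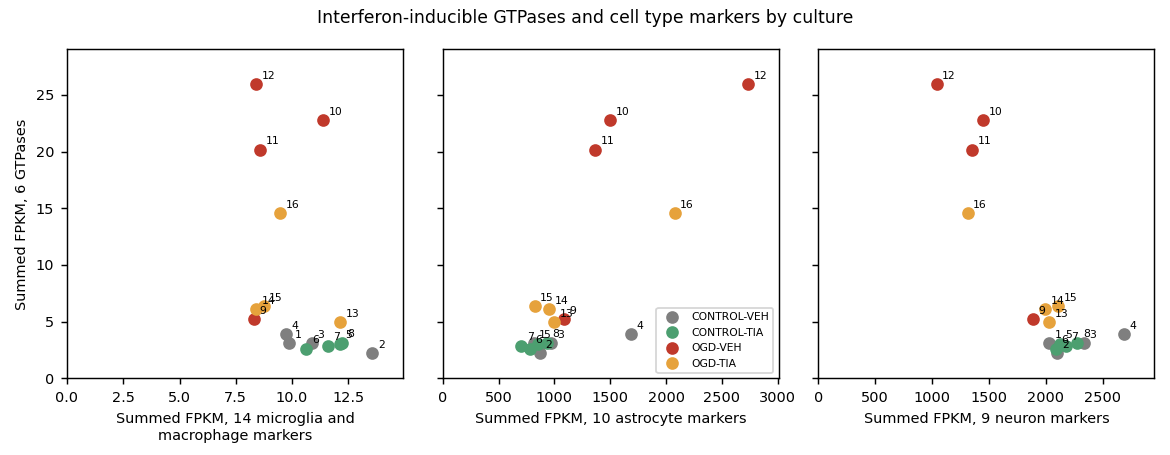
Summed FPKM of the 6 GTPases (vertical axis) against the summed FPKM of 14 microglia and macrophage, 10 astrocyte and 9 neuron markers (horizontal axes, 1 panel each) in the 16 numbered cultures, coloured by group. Cultures 10, 11, 12 and 16 hold 14.6 to 25.9 FPKM of GTPases at neuron sums of 1040.3 to 1449 FPKM, and CONTROL-VEH 4 combines a high astrocyte sum with 3.92 FPKM of GTPases.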

How the data were processed

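The 16 cultures were grouped by their titles. The treatment label calls the vehicle cultures untreated. The members and gene lists were chosen with earlier results of these data known. The authors' provider sequenced stranded mRNA libraries (50-base single-end reads), aligned them with STAR to GRCm38 and quantified isoforms with eXpress. The deposited isoform values are taken to be TMM-scaled FPKM, as the table is named, and how TMM was run is not given in the sources used here. Of 135276 lines, 74 without an identifier were dropped, and 99.8854% of isoforms were found in GENCODE M21, which gave transcript lengths. Symbols and positions came with the deposited values.

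FPKM were summed over the isoforms of a symbol and log2(FPKM + 0.1) was taken, a scale that understates the change of low genes. Genes averaging 0.5 FPKM or more in the cultures compared were fitted with limma 3.58.1 in R 4.3.3 (eBayes with a mean-variance trend), adjusted by Benjamini-Hochberg over all genes tested, and called at the study's thresholds (padj up to 0.05, log2 fold change of 1 or more in size). DESeq2, which the authors used, needs counts and was not run. A two-sided exact permutation over 70 assignments was added for single genes. The study calls the cultures of a group biological replicates but does not say whether they were separate preparations. So p measures the spread between these cultures, which may not be that between preparations. Depth was estimated from 17592 single-isoform genes longer than 600 bases, without counting intervals. The fit was checked on simulated data. Promoter windows are RefSeq's.

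Values per culture are given for members called in any comparison and for the 2 most expressed of each role, and pathway genes named are those called and up to 4 per list by p in OGD-VEH with CONTROL-VEH. Other values were chosen after they were seen. The alternatives were another pseudocount, filter, scaling, weighting or variance estimate, isoforms weighted by length, all cultures in 1 fit and each culture left out.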

Additional observations from a re-analysis of the deposited data

Results flagged for a closer look

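Of 92 groups of 4 cultures examined for 23 members, 9 had a culture whose gap to the next exceeded the 95% critical value of Dixon's test, beside about 1 in 20 by chance. Cultures 8, 9 and 16 held 2 of the 9 each. In OGD-VEH 9, *Gbp2* was lowest at 1.44 FPKM (9.35 to 11.6 in the other 3 cultures) and *Mx2* was lowest at 0.002 FPKM (0.93 to 1.12). In OGD-TIA 16, *Irf1* was highest at 4.82 FPKM (2.29 to 2.38) and *Mx2* was highest at 1.15 FPKM (0.331 to 0.416). In CONTROL-VEH, *Irf3* was highest in culture 1 at 72.1 FPKM (35.4 to 39.1) and *H2-D1* was lowest in culture 4 at 20.3 FPKM (69.3 to 86.0). In CONTROL-TIA, *Gbp2* was highest in culture 5 at 0.294 FPKM (0.142 to 0.152), and *Iigp1* and *Tap1* were highest in culture 8 at 1.09 FPKM (0.722 to 0.737) and 4.64 FPKM (3.13 to 3.27).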

How the results depend on the processing

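In OGD-VEH against CONTROL-VEH, 4 members were called as reported, beside 393 genes upward and 275 downward in all. A pseudocount of 1 FPKM left 2 (*Gbp2* and *Gbp3*), beside 288 upward and 221 downward. A minimum mean of 2 FPKM left 2 (*Gbp2* and *Irf1*, of 12 tested), beside 351 and 286. Without a filter 0 of 40 were called, beside 26 and 10 of 32532 genes. The array quality weights of limma gave 9 (1141 and 788 in all), and all 16 cultures in 1 fit gave 8 (753 and 659). The member counts broadly followed these totals. Leaving out 1 culture gave 0 to 11, with 0 in 7 of the 8 cases. In OGD-TIA against CONTROL-TIA, 0 became 1 (*Gbp2*) with array quality weights, beside 49 genes upward and 31 downward in all. Isoforms weighted by length also gave 1 (*Gbp2*), beside 28 upward and 45 downward, and leaving out a culture gave 0 to 1. In OGD-TIA against OGD-VEH, 0 became 3 lower members with array quality weights (*Gbp2*, *Gbp3* and *H2-K1*, beside 146 genes upward and 262 downward in all). The median there ranged from -0.84 (without OGD-VEH 9) to -0.29 when a culture was left out. Over both arms, 5 members were called as reported, beside 456 genes upward and 324 downward in all. They became 1 with a pseudocount of 1 FPKM (*Gbp2*, beside 252 and 142) and 1 with a minimum mean of 2 FPKM (*Gbp2*, beside 320 and 221). Array quality weights left 3 (330 and 225 in all). Without a filter there were 6 (*Ifit3b* was added), beside 501 and 340, and leaving out a culture gave 3 to 6. The higher minimum removed 11 of the 23 members and 9 of the 21 from the test, and otherwise the cause was not tested. With CONTROL-TIA against CONTROL-VEH and the interaction, 0 members were called under every alternative run. No member called as reported changed direction under any alternative. Median-ratio scaling called 3 members in the VEH arm (beside 328 genes upward and 314 downward in all) and 5 over both arms (388 and 385). The filter kept 17 members out of every comparison as reported. No paired analysis was run, because culture numbers run from 1 to 16 without a number that 2 groups share. Whether cultures at the same place in their groups belong together is not given by the labels.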

Other observations

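*Ifnar1*, a chain of the type I interferon receptor, was chosen after its values were seen. It measured 41.7, 49.1, 27.0 and 45.2 FPKM in CONTROL-VEH and 25.4, 22.8, 23.5 and 25.4 FPKM in CONTROL-TIA, without overlap, with a log2 difference of -0.71 ± 0.18 (SE, padj = 0.9994 by limma). After OGD, it measured 43.2, 59.0, 58.1 and 27.4 FPKM in OGD-VEH and 24.6, 48.3, 24.5 and 45.8 FPKM in OGD-TIA, with overlap. *Samd9l*, an interferon-inducible gene, was like *Cmpk2* lower in all 8 OGD cultures than in the CONTROL cultures of the same arm. Over both arms its log2 fold change was -0.83 ± 0.16 (SE, padj = 0.002981 by limma), and its range was 0.803 to 1.07 FPKM in CONTROL-VEH and 0.268 to 0.598 FPKM in OGD-VEH. Cultures 4, 8, 12 and 16 each held the highest astrocyte marker sum of their group (1689.5, 934, 2734 and 2076 FPKM) and its lowest *H2-D1* (20.3, 52.9, 35.5 and 41.0 FPKM). The labels tie no culture of one group to a culture of another, and whether these cultures share a source was not tested.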
